A study of Rattus norvegicus with 9 samples.

Results

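The genes described here are 42 members of the interferon response and antigen processing programmes, chosen by gene symbol and followed over 9 libraries of messenger RNA from primary rat osteoblasts. They comprise 4 interferon receptor chains, 6 transcription factors, 15 RNA sensors and antiviral effectors, 8 genes of the ISG15, ubiquitin and ADP-ribose group, 5 immunoproteasome genes and 4 genes of peptide loading. Of the 42, 39 had a row among the 19085 genes of the table, and 35 had enough counts for a test, among 13256 tested genes in all. Irf9 (0 to 2 counts per library), Rsad2 (0 to 6), Mx1 (1 to 9) and Mx2 (2 to 6) had a row with too few counts. Isg15, Psmb10 and Tapbp had no row under these symbols and are not analysed here.

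Interferons are secreted proteins that bind cell-surface receptor chains. Through kinases of the Jak family and transcription factors of the Stat and Irf families they switch on antiviral genes. Type I interferons act through Ifnar1 and Ifnar2, and interferon gamma acts through Ifngr1 and Ifngr2. Many of the same genes serve antigen presentation: the immunoproteasome cuts proteins into peptides, the Tap1-Tap2 transporter carries the peptides into the endoplasmic reticulum, and class I molecules with their light chain B2m show them at the cell surface. In bone, interferons are known as brakes on osteoclast formation.

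All 9 cultures were osteoblasts digested from the calvaria of male Sprague-Dawley rats, 24 hours after birth, and kept for 7 days in osteogenic induction medium, which contained dexamethasone, ascorbic acid and β-glycerophosphate. The control group (3 libraries) received the medium alone, and the thrombin group (3 libraries) received it with thrombin at 20 U/mL, the coagulation protease that also signals through protease-activated receptors. The PD03 group (3 libraries) received thrombin at 20 U/mL together with PD0325901 (here PD03), which inhibits the kinase MEK, at 0.1 μM according to the methods, although 1 protocol among the labels writes 0.1 mM. No group received PD03 without thrombin. As tissue the labels give the knee, whereas their growth protocol gives the calvaria. Dexamethasone, a glucocorticoid, was thus present in every group. The 3 samples of a group are described as independent, but nothing says whether they came from separate animals or cultures, so p-values measure the spread between these samples, which may be technical.

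Total counts per library ran from 15447832 to 19841468. The share of all counts that fell on Col1a1 was 6.78% to 6.96% under PD03 and 4.18% to 5.05% elsewhere. Of 9 osteoblast markers, Runx2, Sp7, Col1a1, Alpl and Phex were tested, while Bglap (1 to 5 counts per library), Ibsp (0 to 1), Dlx5 and Dmp1 were near 0, so the late osteoblast markers Bglap and Ibsp were all but absent. Alpl ran from 0.329 to 3.80 CPM (counts relative to library size after TMM scaling). The 5 tested markers did not all move with Col1a1. With thrombin against control, 2 lay above 0 and 3 below (log2 fold changes -2.24 to 0.53). For PD03 against thrombin, 3 lay above 0 and 2 below (-0.67 to 3.14). For PD03 against control, 4 lay above 0 and 1 below (-0.42 to 0.90). Of 15 myeloid markers, 13 had a row and 10 of these had low counts, with the leukocyte marker Ptprc at 0 to 6 counts and Aif1 at 0 to 1 count per library. Only 3 of 9 lymphoid markers had a row, all with low counts, and these summed to at most 0.518 CPM per library.

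The interferon-stimulated response element is the DNA motif bound by proteins of the Irf family and complexes that hold them. Its core, GAAA followed by any 2 bases and GAAA again, was searched on both strands of the promoter entries of RefSeq (build GRCr8), which run from 250 bases before to 50 bases after each gene's start. Of the 42 members, 36 had an entry, and 20 of these (55.6%) held the core, beside 3.92% of all 33469 entries. Within the bases before the start the core was found in 18 of the 36 (50%), beside 3.41% of all entries. The core was found in 9 of 11 sensors and effectors, 4 of 4 peptide loading genes, 3 of 5 immunoproteasome genes, 3 of 6 of the ubiquitin and ADP-ribose group, 1 of 6 transcription factors and 0 of 4 receptors. Adar, Mx2, Ifit2, Usp18, Isg15 and Dhx58 had no entry.

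The following windows of 40 bases, each wholly before the start, hold the core. They come from 4 members called lower with thrombin in the test below (Irf7, Ifih1, Oas1a and Gbp2) and the most abundant member (Ifitm3). The others are 3 genes of the antigen processing arm (Psme2, Tap2 and B2m). Another 4 members called lower (Ifngr1, Parp9, Ifi35 and Psmb9) had an entry without the core, and Ifit2 had no entry. Each window is written 5′ to 3′ on the gene's own strand with the core in capitals. Positions count back from the base before the start, which is -1.
Irf7: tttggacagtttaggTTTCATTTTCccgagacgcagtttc
Ifih1: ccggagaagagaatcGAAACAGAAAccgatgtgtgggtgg
Oas1a: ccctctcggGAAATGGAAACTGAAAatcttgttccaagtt
Gbp2: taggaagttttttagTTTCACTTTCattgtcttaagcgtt
Ifitm3: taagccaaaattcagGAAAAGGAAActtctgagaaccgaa
Psme2: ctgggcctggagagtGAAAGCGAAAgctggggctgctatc
Tap2: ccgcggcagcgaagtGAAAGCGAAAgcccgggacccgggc
B2m: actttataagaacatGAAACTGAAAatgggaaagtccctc

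The windows lay at chr1:205800068-205800107 (minus strand) for Irf7, chr3:67684003-67684042 (minus) for Ifih1, chr12:41330416-41330455 (plus) for Oas1a, chr2:234005681-234005720 (plus) for Gbp2, chr1:205541778-205541817 (minus) for Ifitm3, chr15:33052780-33052819 (minus) for Psme2, chr20:4652313-4652352 (minus) for Tap2 and chr3:129549165-129549204 (plus) for B2m. The core stood at -69 to -60 in Irf7, -59 to -50 in Ifih1, -31 to -22 in Gbp2, -44 to -35 in Ifitm3, -53 to -44 in Psme2, -41 to -32 in Tap2 and -150 to -141 in B2m. Oas1a held 2 overlapping cores, which run together in capitals. In Irf7 and Gbp2 the core was read on the opposite strand. The other members with the core wholly before the start were Bst2, Eif2ak2, Ifi27, Ifit3, Isg20, Parp14, Psmb10, Rsad2, Tap1 and Tapbp. A relaxed gamma-activated site, the Stat dimer motif TTCNNNGAA, was found in 9 of the 36 entries (25%), beside 8.87% of all entries, and overlapped the core in Bst2. A strict kappa B site (a single spelling of 10 letters) was found in 4 of the 36 (11.1%), in Irf3, B2m, Ifngr2 and Tap1, beside 0.111% of all entries. Such matches are descriptions of letters and no measurement of binding was made.

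Levels of different genes were compared per length, as the deposited FPKM values (fragments scaled to transcript length and library size), averaged over the 9 libraries. The membrane protein Ifitm3, which blocks entry of enveloped viruses, had the highest level of the 35 tested members at 625 FPKM. B2m followed with 151 FPKM and the mitochondrial protein gene Ifi27 with 119 FPKM. The proteasome activator Psme1 (57.6 FPKM), the receptor Ifngr1 (45.1 FPKM), Psme2 (30.6 FPKM) and Psmb8 (27.3 FPKM) came next. The antiviral genes Oas1a (0.20 FPKM), Ifit3 (0.337 FPKM), Oasl (0.374 FPKM), Usp18 (0.445 FPKM) and Dhx58 (0.671 FPKM), and the transcription factor Irf8 (0.258 FPKM), were the tested members under 1 FPKM. Levels thus differed widely among the antiviral effectors, from Mx1, Rsad2 and Oas1a at or near 0 to Ifit2 (7.67 FPKM), Eif2ak2 (8.72 FPKM) and Ifitm3.

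**Figure D1:**
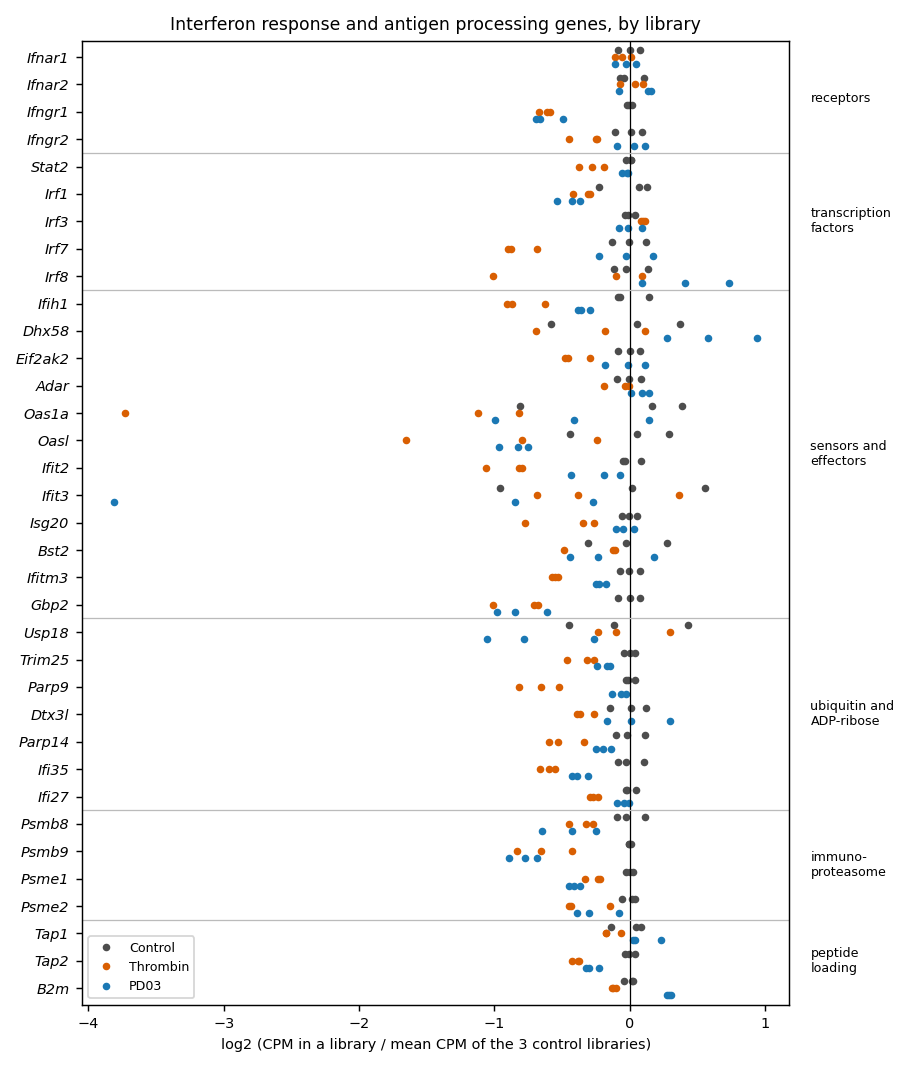
Each point is 1 library for 1 of the 35 tested members, placed by log2 of its CPM over the mean CPM of the 3 control libraries, with control in grey, thrombin in orange and PD03 in blue. Thrombin libraries lie left of 0 for most rows, and the wide scatter of Oas1a, Ifit3, Oasl, Dhx58 and Usp18 goes with low counts.

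The first comparison asks which of these genes changed when thrombin was added to the induction medium. With thrombin, 9 of the 35 tested members were lower and 0 were higher than in the control group, where a call needed a log2 fold change beyond 0.58 in either direction and, after adjustment over all tested genes in edgeR, p below 0.05. SE stands for the standard error of such a value. The 9 were the receptor Ifngr1, the transcription factor Irf7, the effectors Ifih1, Oas1a, Ifit2 and Gbp2, the ADP-ribose and adaptor genes Parp9 and Ifi35, and the immunoproteasome subunit Psmb9. They made up 25.7% of the tested members, beside 5.44% of all tested genes called lower, 2.62% called higher and 8.06% called either way. At an unadjusted p under 0.05 the higher members also numbered 0, and DESeq2 and limma voom gave 0 as well. With no fold threshold, 22 members were lower (62.9%, beside 14.6% of all tested genes) and 0 were higher (beside 14.1%, and 28.7% either way). The 3 thrombin libraries lay below the 3 control libraries in 24 members (68.6%, beside 20.2%) and above them in 1, Irf3 (beside 20.1%).

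The median log2 fold change of the members with thrombin was -0.34, beside -0.0060 over all tested genes, and 32 of 35 lay below 0. Irf3, Ifnar2 and Usp18 lay above 0, with log2 fold changes of 0.10, 0.03 and 0.03 that did not pass the test. The count of 32 was the same with library totals or DESeq2 size factors in place of TMM. It was also 32 from FPKM values, which carry the same scaling as library totals. With a library left out the count ran from 30 (without thrombin library 1) to 34 (without thrombin library 2). In bulk RNA of this kind, fewer cells of a type and less RNA per cell cannot be told apart. The summed level of the myeloid markers was 23.6 to 25.9 CPM in the control libraries, 30.5 to 34.8 CPM in the thrombin libraries and 20.0 to 20.9 CPM in the PD03 libraries, most of it from Cd14, and that of the endothelial markers was 26.2 to 29.5, 32.1 to 34.2 and 45.3 to 51.1 CPM, most of it from Egfl7. The myeloid sum did not hold for each marker. Among the 3 tested myeloid markers, 2 lay above 0 and 1 below with thrombin (log2 fold changes -0.47 to 0.76). In PD03 against thrombin, where the sum fell, again 2 lay above 0 and 1 below (-0.91 to 0.92). The part of myeloid and endothelial cells in the result was not tested.

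The second comparison asks which members moved when the MEK inhibitor was added to thrombin. In the PD03 group, 4 members were higher than in the thrombin group (Irf7, the RNA sensor gene Dhx58, Ifit2 and Parp9) and 0 were lower. That is 11.4% of the tested members beside 9.61% of all tested genes called higher, a share near the background, and 6.31% of all tested genes were called lower (15.9% either way). At an unadjusted p under 0.05 the lower members numbered 1, Psme1, and DESeq2 and limma voom called 0 lower. With no fold threshold, 16 members were higher (45.7%, beside 25.3%) and 1, Psme1, was lower (2.86%, beside 24.5%, and 49.8% either way). The PD03 libraries lay above the thrombin libraries in 19 members (54.3%, beside 28.4%) and below them in 2, Usp18 and Psme1 (5.71%, beside 27.1%). The median log2 fold change was 0.22, beside 0.011 over all tested genes, and 26 of 35 lay above 0. This comparison shares its thrombin libraries with the first, so opposite signs of a gene in the 2 comparisons are not independent of each other.

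The count of 4 was 2 without thrombin library 1, thrombin library 3 or PD03 library 2, and 2 with library totals as the scaling. With library totals the median log2 fold change of all tested genes was -0.088 in PD03 against thrombin (0.011 with TMM) and -0.12 in PD03 against control (-0.0039 with TMM). That scaling turned 1274 higher and 836 lower calls over all genes into 1022 and 1176 in the former and 649 and 540 into 470 and 908 in the latter. Members below 0 then numbered 14 in place of 9 and 32 in place of 27.

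The last comparison sets the PD03 group, which also held thrombin, against the control group. Here 3 members were lower, Ifngr1, Gbp2 and Psmb9, and 0 were higher, which is 8.57% beside 4.07% of all tested genes called lower, 4.9% called higher and 8.97% called either way. At an unadjusted p under 0.05 the higher members numbered 2, B2m and Dhx58, and DESeq2 and limma voom called 0 higher. With no fold threshold, 14 members were lower (40%, beside 20.2%) and 1, B2m, was higher (2.86%, beside 19.7%, and 39.9% either way). The PD03 libraries lay below the control libraries in 16 members (45.7%, beside 24%) and above them in 1, B2m (beside 23.7%). The median log2 fold change was -0.18, beside -0.0039 over all tested genes, and 27 of 35 lay below 0. The control libraries are shared with the first comparison and the PD03 libraries with the second.

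**Figure D2:**
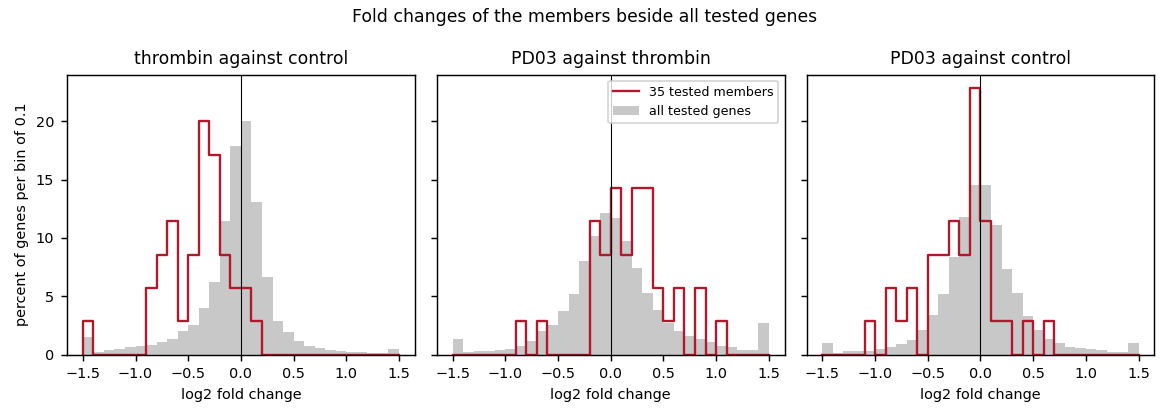
The red line gives the percent of the 35 tested members, and the grey bars the percent of all tested genes, in bins of 0.1 of the log2 fold change, one panel for each comparison. With thrombin the members lie left of the grey peak at 0 (median -0.34 beside -0.0060), and values beyond 1.5 in size are drawn in the outermost bins.

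Among the receptor chains, Ifngr1, which binds interferon gamma, fell with thrombin and was also lower than control in the PD03 group. It stood at 116, 118 and 119 CPM in the control libraries, 77.0, 74.0 and 78.2 CPM in the thrombin libraries and 74.3, 72.7 and 83.6 CPM in the PD03 libraries. Neither treated group overlapped the control group, and the treated groups overlapped each other. The log2 fold change was -0.62 with thrombin (SE 0.05, adjusted p = 1.6e-13), 0.01 for PD03 against thrombin (SE 0.05, adjusted p = 0.91) and -0.61 for PD03 against control (SE 0.05, adjusted p = 2.2e-13). Its partner chain Ifngr2 had another order of groups, at 39.8 ± 2.79 CPM (SD, n = 3) in the control group, 32.2 ± 2.55 in the thrombin group and 40.3 ± 2.88 in the PD03 group. Its log2 fold changes of -0.30 with thrombin (adjusted p = 9.7e-04) and 0.33 for PD03 against thrombin (adjusted p = 1.7e-04) passed the p threshold but not the fold threshold.

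The type I receptor genes passed the test in no comparison. Ifnar1 was at 99.2 ± 5.54, 95.6 ± 3.93 and 97.5 ± 5.22 CPM in the control, thrombin and PD03 groups, and Ifnar2 at 39.2 ± 2.69, 39.9 ± 2.36 and 41.3 ± 3.59 CPM. Their log2 fold changes lay between -0.05 and 0.08 in the 3 comparisons, with adjusted p-values from 0.40 to 0.83. In the RefSeq order Ifnar2, Ifnar1 and Ifngr2 are neighbours on 1 chromosome, with Il10rb between the first pair, whereas Ifngr1 stands elsewhere.

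Among the transcription factors, Irf7, which amplifies the type I interferon response, was the 1 member of this group that passed both thresholds. It stood at 6.09, 7.26 and 6.63 CPM in the control libraries, 3.57, 3.62 and 4.14 CPM in the thrombin libraries and 7.52, 5.70 and 6.55 CPM in the PD03 libraries. The thrombin libraries lay below all 6 others, and the PD03 and control libraries overlapped. The log2 fold change was -0.82 with thrombin (SE 0.16, adjusted p = 1.3e-04), 0.81 for PD03 against thrombin (SE 0.16, adjusted p = 6.1e-05) and -0.01 for PD03 against control (adjusted p = 0.98). Neither call was lost when any single library was left out.

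Stat2, a transcription factor activated by type I interferon receptors, was at 57.7 ± 0.810, 47.6 ± 3.03 and 56.5 ± 0.886 CPM in the 3 groups. The thrombin libraries lay below both other groups, with log2 fold changes of -0.28 (adjusted p = 2.1e-04) and 0.25 (adjusted p = 3.6e-04), under the fold threshold. Irf1, induced by interferon gamma, kept another order at 28.5 ± 3.67, 22.5 ± 1.10 and 21.0 ± 1.22 CPM. It was lower in both treated groups than in the control group, with log2 fold changes of -0.34 (adjusted p = 0.0018) and -0.44 (adjusted p = 5.1e-05), and the treated groups overlapped. Irf3, the factor that starts interferon transcription after viral sensing, did not pass the test in any comparison (log2 fold changes -0.10 to 0.10). Irf3 overlaps Bcl2l12 in RefSeq, and reads in the overlap cannot be assigned without strand. Irf8, a myeloid and lymphoid factor, was at 12 to 37 counts per library, and its log2 fold change of 0.68 for PD03 against thrombin (adjusted p = 0.064) missed the threshold. Without thrombin library 2 or PD03 library 3 that value was 0.90 or 0.83, with adjusted p-values of 0.043 and 0.047.

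The sensors and effectors gave 4 of the 9 calls with thrombin, and 12 of 12 tested members lay below 0 there (median log2 fold change -0.50), beside 5.44% of all tested genes called lower and 51.1% below 0. Ifit2, whose product binds viral RNA and blocks its translation, stood at 34.7, 31.9 and 31.6 CPM in the control libraries, 15.7, 18.5 and 18.8 CPM in the thrombin libraries and 24.2, 28.8 and 31.1 CPM in the PD03 libraries. The 3 groups did not overlap, with PD03 between the other two. Its log2 fold change was -0.89 with thrombin (SE 0.09, adjusted p = 4.1e-11), 0.66 for PD03 against thrombin (SE 0.09, adjusted p = 4.0e-08) and -0.23 for PD03 against control (adjusted p = 0.024). The second value fell under the fold threshold, at 0.57, without thrombin library 1 or PD03 library 3, and at 0.56 with library totals.

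Ifih1 encodes MDA5, a sensor of long double-stranded RNA. It stood at 10.3, 10.4 and 12.1 CPM in the control libraries, 5.83, 5.98 and 7.05 CPM in the thrombin libraries and 8.90, 8.35 and 8.51 CPM in the PD03 libraries. Again the groups did not overlap and PD03 lay between. The log2 fold change was -0.79 with thrombin (SE 0.13, adjusted p = 4.5e-06), 0.45 for PD03 against thrombin (adjusted p = 0.0044, under the fold threshold) and -0.34 for PD03 against control (adjusted p = 0.026).

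Gbp2, an interferon-induced GTPase that acts on the vacuoles of intracellular microbes, went with Ifngr1. It stood at 10.9, 10.4 and 9.79 CPM in the control libraries, 6.48, 5.15 and 6.35 CPM in the thrombin libraries and 6.78, 5.76 and 5.26 CPM in the PD03 libraries. Both treated groups lay below the control group and overlapped each other. The log2 fold change was -0.80 with thrombin (SE 0.14, adjusted p = 1.2e-05), -0.01 for PD03 against thrombin (adjusted p = 0.98) and -0.80 for PD03 against control (SE 0.14, adjusted p = 7.1e-06). Reads shared with related Gbp genes could not be told apart from this table.

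Oas1a, an oligoadenylate synthetase upstream of RNase L, was called at 1 to 16 counts per library. It stood at 0.870, 1.01 and 0.442 CPM in the control libraries, 0.357, 0.439 and 0.0583 CPM in the thrombin libraries and 0.583, 0.389 and 0.857 CPM in the PD03 libraries. The highest thrombin library came close to the lowest control library. Its log2 fold change of -1.42 with thrombin (SE 0.54, adjusted p = 0.044) had adjusted p-values of 0.13, 0.18, 0.063 and 0.24 without control library 1, control library 2, thrombin library 1 and thrombin library 3 (log2 fold changes -1.32, -1.19, -1.59 and -0.95), and 0.086 by DESeq2.

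Dhx58, which encodes LGP2, a partner of the RNA sensors, was called in PD03 against thrombin. It stood at 1.47, 0.947 and 1.83 CPM in the control libraries, 1.25, 1.54 and 0.874 CPM in the thrombin libraries and 2.12, 2.72 and 1.71 CPM in the PD03 libraries. The PD03 libraries lay above the thrombin libraries and overlapped the control libraries. The log2 fold change was 0.83 (SE 0.31, adjusted p = 0.023), and it was 0.64 both without thrombin library 3 (adjusted p = 0.12) and without PD03 library 2 (adjusted p = 0.14).

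Ifitm3 had the smallest adjusted p-value of the members with thrombin, although its change stayed under the fold threshold. It stood at 479, 459 and 509 CPM in the control libraries, 334, 329 and 325 CPM in the thrombin libraries and 428, 413 and 406 CPM in the PD03 libraries. The groups did not overlap and PD03 again lay between. The log2 fold changes were -0.55 with thrombin (SE 0.04, adjusted p = 6.4e-16), 0.34 for PD03 against thrombin (adjusted p = 4.2e-10) and -0.21 for PD03 against control (adjusted p = 7.0e-06). Without control library 2 the first value was -0.58 and passed the fold threshold.

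Eif2ak2, the kinase PKR that halts translation on double-stranded RNA, was at 39.7 ± 2.22, 29.9 ± 2.13 and 39.1 ± 3.97 CPM. Its log2 fold changes were -0.41 (adjusted p = 2.3e-05) and 0.38 (adjusted p = 2.7e-05) in the first and second comparisons. Eif2ak2 overlaps another gene (LOC134479106) in RefSeq, and reads in the overlap cannot be assigned without strand. Adar, the RNA editing enzyme, had log2 fold changes of -0.08 (adjusted p = 0.44), 0.16 (adjusted p = 0.045) and 0.08 (adjusted p = 0.35) in the first, second and last comparisons. Isg20, an exonuclease, had thrombin libraries below both other groups but missed the test (log2 fold changes -0.44 and 0.40, adjusted p = 0.12 for both). Oasl, Ifit3 and Bst2 did not pass in any comparison, at 6 to 20, 1 to 20 and 32 to 57 counts per library. Ifit3 had a log2 fold change of -1.04 for PD03 against control (adjusted p = 0.11), which was -1.59 without PD03 library 2 (adjusted p = 0.042). The 4 members with low counts were not called without the filter either, with adjusted p-values of 0.19 or more.

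**Figure D3:**
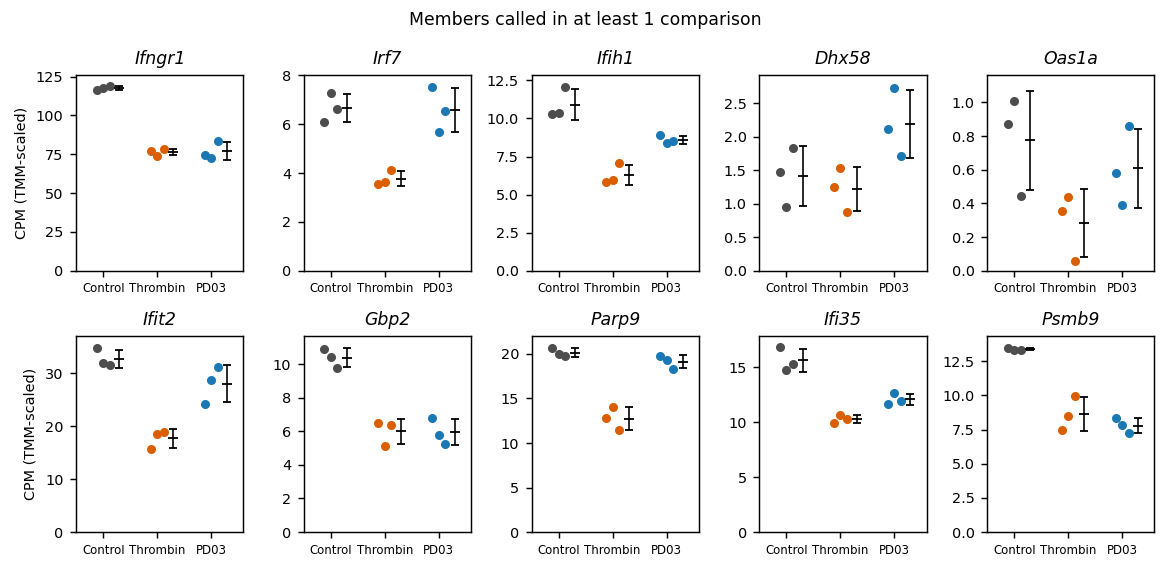
CPM after TMM scaling is plotted for the 10 members called in at least 1 comparison, one point for each library, with the mean and SD of the 3 libraries beside each group. Irf7, Ifih1, Ifit2 and Parp9 are low in the thrombin libraries and higher in the PD03 libraries, whereas Ifngr1, Gbp2 and Psmb9 are low in both.

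In the ubiquitin and ADP-ribose group, Parp9, which pairs with the ubiquitin ligase Dtx3l in the response to DNA damage and interferon, stood at 20.7, 20.0 and 19.8 CPM in the control libraries, 12.8, 14.0 and 11.4 CPM in the thrombin libraries and 19.8, 19.3 and 18.4 CPM in the PD03 libraries. The thrombin libraries lay below the other 6. Its log2 fold change was -0.66 with thrombin (SE 0.09, adjusted p = 3.6e-07), 0.59 for PD03 against thrombin (SE 0.10, adjusted p = 1.6e-06) and -0.07 for PD03 against control (adjusted p = 0.55). The second value sat at the fold threshold and went under it without control library 2 or 3 (0.57 each), thrombin library 1 or 3 (0.57 and 0.51) or PD03 library 1 or 2 (0.56 and 0.57), and with DESeq2 size factors (0.58) or library totals (0.49).

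The neighbours of Parp9 also had their lowest group mean with thrombin. Dtx3l, which overlaps Parp9 in RefSeq so that reads in the overlap cannot be assigned without strand, was at 7.84 ± 0.734, 6.19 ± 0.296 and 8.18 ± 1.35 CPM, with log2 fold changes of -0.34 (adjusted p = 0.069) and 0.39 (adjusted p = 0.020). Parp14, a mono-ADP-ribosyltransferase, was at 49.4 ± 3.69, 35.4 ± 3.41 and 43.2 ± 1.63 CPM, with log2 fold changes of -0.49 (adjusted p = 2.5e-07) and 0.29 (adjusted p = 5.2e-04). All 3 of these genes lay next to each other, and in each the thrombin libraries were below the control and the PD03 libraries.

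Ifi35, whose product pairs with the adaptor Nmi, stood at 16.8, 14.7 and 15.3 CPM in the control libraries, 9.87, 10.6 and 10.3 CPM in the thrombin libraries and 11.6, 12.6 and 11.9 CPM in the PD03 libraries. The 3 groups did not overlap. Its log2 fold change was -0.60 with thrombin (SE 0.10, adjusted p = 1.3e-05), 0.23 for PD03 against thrombin (adjusted p = 0.078) and -0.38 for PD03 against control (adjusted p = 0.0029). The first value was -0.54 without control library 1 and -0.57 without thrombin library 1, under the fold threshold.

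Trim25, the ubiquitin ligase that activates the sensor RIG-I, was at 42.7 ± 1.22, 33.6 ± 2.45 and 37.6 ± 1.35 CPM, and Ifi27 was at 113.8 ± 3.07, 94.6 ± 1.89 and 110.3 ± 3.32 CPM. Their log2 fold changes with thrombin were -0.34 (adjusted p = 6.7e-05) and -0.27 (adjusted p = 1.2e-05), and for PD03 against thrombin 0.16 (adjusted p = 0.040) and 0.22 (adjusted p = 8.5e-05). Both thus lay lowest in the thrombin group at a size under the fold threshold. Usp18, the protease that removes ISG15 from proteins and dampens type I signalling, was at 7 to 20 counts per library and did not pass in any comparison.

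**Figure D4:**
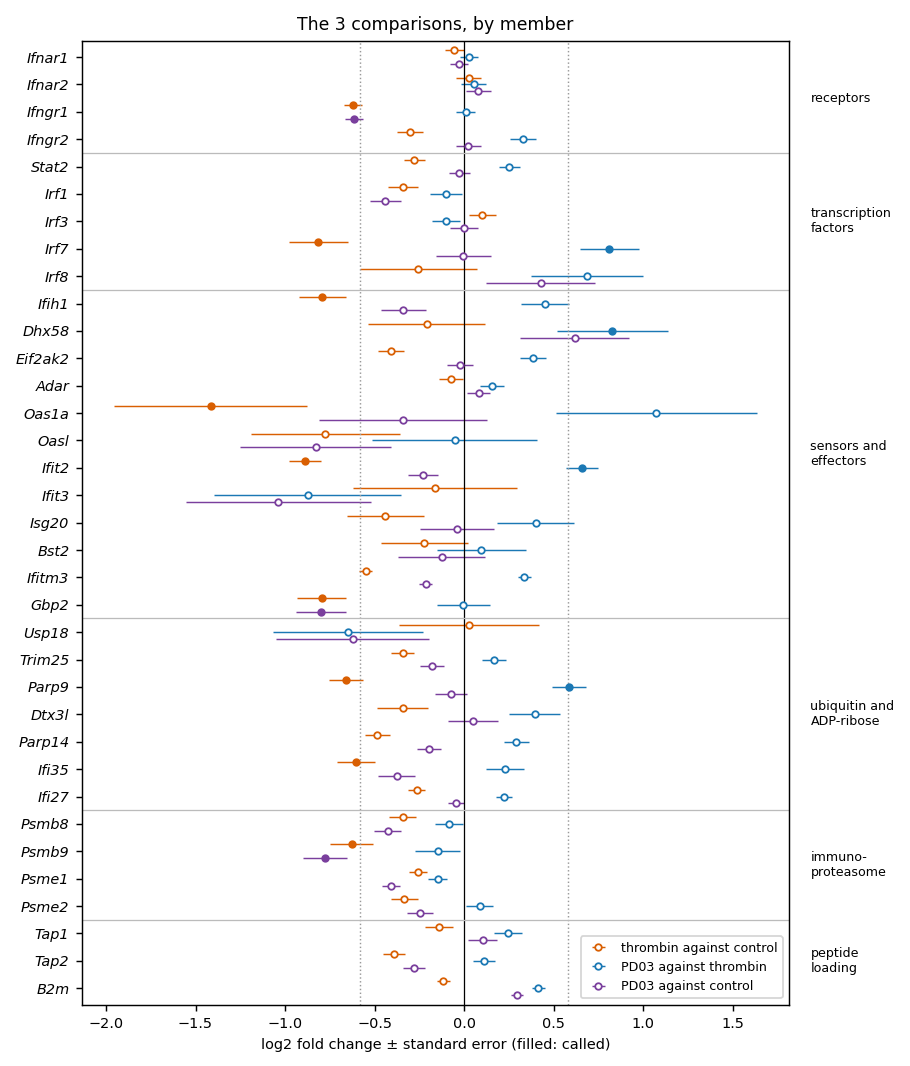
Log2 fold changes with their standard errors are shown for the 35 tested members in the 3 comparisons, with filled points where a member passed both thresholds and dotted lines at 0.58 on either side. Orange points (thrombin against control) lie left of 0 in 32 rows and blue points (PD03 against thrombin) right of 0 in 26 rows.

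The tested immunoproteasome genes were lower than control in both treated groups. The 4 tested genes had median log2 fold changes of -0.34 with thrombin, -0.12 for PD03 against thrombin and -0.42 for PD03 against control, and each of the 4 was lower with an adjusted p-value under 0.05 in the first and the last comparison, beside 14.6% and 20.2% of all tested genes. Psmb9, a catalytic subunit that replaces Psmb6, stood at 13.5, 13.3 and 13.3 CPM in the control libraries, 7.49, 8.50 and 9.97 CPM in the thrombin libraries and 8.32, 7.84 and 7.22 CPM in the PD03 libraries. Both treated groups lay below the control group and overlapped each other. Its log2 fold change was -0.63 with thrombin (SE 0.12, adjusted p = 4.9e-05), -0.15 for PD03 against thrombin (adjusted p = 0.35) and -0.78 for PD03 against control (SE 0.12, adjusted p = 1.1e-06). The first value was -0.53, under the fold threshold, without thrombin library 1.

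Psmb8, which replaces Psmb5, was at 45.8 ± 3.38, 36.1 ± 2.21 and 33.9 ± 4.66 CPM, with log2 fold changes of -0.34 with thrombin (adjusted p = 3.7e-04) and -0.43 for PD03 against control (adjusted p = 1.1e-05). Psme1 and Psme2 form the activator ring that opens the proteasome. Psme1 was at 85.4 ± 1.62, 71.3 ± 2.81 and 64.3 ± 1.81 CPM, and its log2 fold changes of -0.26 (adjusted p = 9.3e-05), -0.15 (adjusted p = 0.016) and -0.41 (adjusted p = 1.5e-08) made it the 1 member lower at each step. Psme1 overlaps Emc9 in RefSeq, and reads in the overlap cannot be assigned without strand. Psme2 was at 47.4 ± 1.70, 37.6 ± 4.62 and 39.8 ± 4.49 CPM, with log2 fold changes of -0.33 (adjusted p = 4.7e-04), 0.09 (adjusted p = 0.35) and -0.25 (adjusted p = 0.0065).

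Genes of the constitutive proteasome and its cofactors were called in no comparison. Of the 16 tested, 1, Psme4, was lower with no fold threshold in thrombin against control (6.25%, beside 14.6% of all tested genes). Their median log2 fold changes were 0.0052 with thrombin, -0.098 for PD03 against thrombin and -0.10 for PD03 against control. The catalytic subunits Psmb5, Psmb6 and Psmb7 had log2 fold changes with thrombin of 0.00, 0.12 and 0.05, with adjusted p-values of 0.99, 0.061 and 0.40. With no fold threshold 8 of the 16 were lower in PD03 against thrombin (50%, beside 24.5%) and 8 in PD03 against control (50%, beside 20.2%).

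The ratio of an immunoproteasome subunit to the constitutive subunit it replaces does not depend on the scaling of libraries. Psmb9 over Psmb6, as a ratio of FPKM, was 0.0664, 0.0696 and 0.0682 in the control libraries, 0.0357, 0.0390 and 0.0467 in the thrombin libraries and 0.0422, 0.0410 and 0.0388 in the PD03 libraries. Both treated groups were below the control group without overlap, with means that differed from the control mean by -40.6% and -40.2%. Psmb8 over Psmb5 was 0.189 ± 0.0161 in the control group, 0.148 ± 0.00503 in the thrombin group and 0.155 ± 0.0178 in the PD03 group. For both ratios the two-sided exact permutation test gave p = 0.1 for either treated group against the control group, the smallest value that 3 against 3 libraries can give, and p = 1 (Psmb9 over Psmb6) and 0.6 (Psmb8 over Psmb5) between the treated groups.

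**Figure D5:**
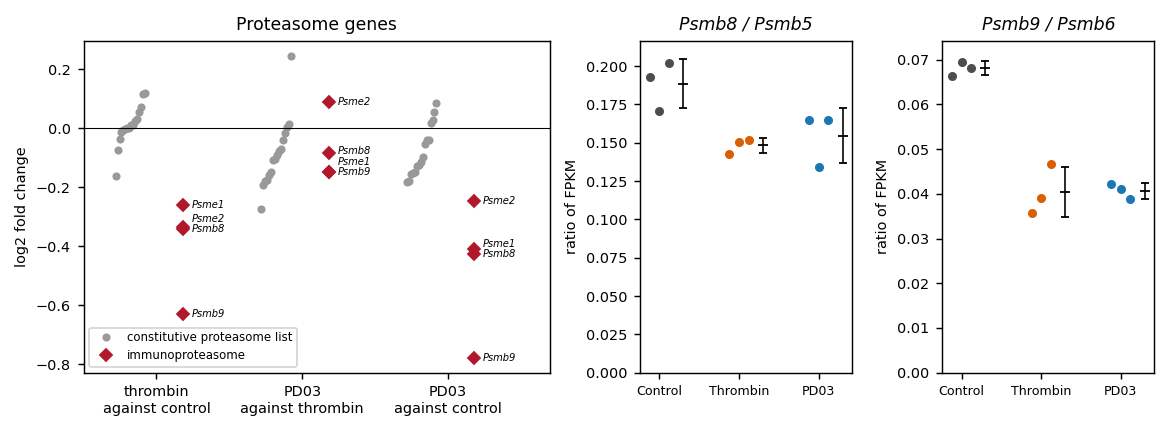
The left panel plots log2 fold changes of the 16 tested constitutive proteasome genes (grey) and the 4 tested immunoproteasome genes (red) in the 3 comparisons, and the other panels plot the FPKM ratios of Psmb8 to Psmb5 and of Psmb9 to Psmb6 in each library with the mean and SD of each group. With thrombin the red points lie at -0.26 or lower, below all grey points.

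The peptide loading genes differed in their order of groups. Tap2, 1 of the 2 chains of the peptide transporter, was at 46.5 ± 1.26, 35.4 ± 0.638 and 38.2 ± 1.41 CPM and was lower in both treated groups, with log2 fold changes of -0.39 with thrombin (adjusted p = 2.7e-06) and -0.28 for PD03 against control (adjusted p = 2.6e-04). Its partner Tap1 was at 27.3 ± 2.23, 24.8 ± 1.14 and 29.3 ± 2.38 CPM, and its log2 fold change passed the p threshold for PD03 against thrombin (0.24, adjusted p = 0.0098), not with thrombin (-0.14, adjusted p = 0.20). Tap2, Psmb8, Tap1 and Psmb9 are consecutive genes in RefSeq, with log2 fold changes with thrombin of -0.39, -0.34, -0.14 and -0.63 in that order.

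B2m, the light chain of class I molecules, was the 1 member higher in PD03 than in control with no fold threshold. It stood at 274, 286 and 288 CPM in the control libraries, 263, 259 and 259 CPM in the thrombin libraries and 347, 350 and 343 CPM in the PD03 libraries. The PD03 libraries lay above both other groups, and the thrombin libraries lay below the control libraries. The log2 fold changes were -0.12 with thrombin (SE 0.04, adjusted p = 0.011), 0.41 for PD03 against thrombin (adjusted p = 5.6e-13) and 0.29 for PD03 against control (SE 0.04, adjusted p = 6.3e-09), none past the fold threshold.

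The rest of the pathway was followed through other lists. Of 13 interferon ligand genes, 2 had a row: Ifna1 had 0 to 3 counts per library, and Ifne, an epithelial type I interferon, 3 to 16. Ifne stood at 0.381, 0.316 and 0.189 CPM in the control libraries and 0.714, 0.877 and 0.583 CPM in the thrombin libraries. In the PD03 libraries it stood at 0.159, 0.324 and 0.184 CPM. Its thrombin libraries lay above the control libraries, but the log2 fold change of 1.26 (SE 0.51, adjusted p = 0.060) missed the threshold. Ifne was lower in PD03 than in thrombin (log2 fold change -1.71, SE 0.55, adjusted p = 0.0084), at 3 to 5 counts per PD03 library. Of 16 tested upstream kinases, sensors and brakes, 2 were lower with thrombin (12.5%, beside 5.44% of all tested genes), Tlr3 and Trim21. Tlr3, the endosomal sensor of double-stranded RNA, was at 11.6 ± 0.111, 6.84 ± 0.0742 and 7.26 ± 0.366 CPM, with log2 fold changes of -0.76 with thrombin (adjusted p = 2.9e-06) and -0.68 for PD03 against control (adjusted p = 1.4e-05). Trim21, an antibody receptor and ubiquitin ligase, was lower with thrombin (log2 fold change -0.68, adjusted p = 5.9e-04). Socs3, a feedback brake on Jak kinases, was at -0.06 on the log2 scale with thrombin (adjusted p = 0.35) and was lower with PD03 than with thrombin alone (-0.68, adjusted p = 1.5e-15) and than in the control group (-0.74, adjusted p = 1.7e-16).

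Of 51 tested other interferon-induced genes, 13 were lower and 1 was higher with thrombin (25.5% and 1.96%, beside 5.44% and 2.62% of all tested genes), with a median log2 fold change of -0.28. In PD03 against thrombin 11 were higher and 5 lower (21.6% and 9.8%, beside 9.61% and 6.31%), and in PD03 against control 1 was higher and 11 lower (1.96% and 21.6%, beside 4.9% and 4.07%). Gbp6, a GTPase of the Gbp family whose symbol stands on 2 rows, stood on its tested row at 5.77, 5.87 and 4.86 CPM in the control libraries, 2.02, 1.48 and 1.46 CPM in the thrombin libraries and 4.77, 5.12 and 4.65 CPM in the PD03 libraries. It fell with thrombin (log2 fold change -1.74, SE 0.21, adjusted p = 5.1e-09) and rose with PD03 against thrombin (1.55, adjusted p = 4.0e-08). Ifit1, at 3 to 21 counts per library, had values of -1.76 (adjusted p = 0.0034) and 1.19 (adjusted p = 0.047).

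The chemokine gene Cxcl10 and the Ifitm relative Ifitm10 kept other orders. Cxcl10 was at 2.49 ± 0.577, 1.36 ± 0.735 and 0.371 ± 0.163 CPM, lowest in the PD03 group, with log2 fold changes of -0.87 with thrombin (adjusted p = 0.041, the libraries overlapping) and -1.83 for PD03 against thrombin (adjusted p = 8.1e-04). Ifitm10 was at 1.20 ± 0.351, 4.33 ± 0.790 and 0.612 ± 0.111 CPM, higher with thrombin (1.85, adjusted p = 3.2e-07) and lower with PD03 against thrombin (-2.81, adjusted p = 1.1e-10).

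Of 16 tested class I heavy chain and chaperone genes, 2 were lower with thrombin (12.5%, beside 5.44% of all tested genes) and 4 higher with PD03 against thrombin (25%, beside 9.61%). In PD03 against control 1 was higher and 1 lower (6.25% each, beside 4.9% and 4.07%). With no fold threshold 6 were higher and 1 lower there (37.5% and 6.25%, beside 19.7% and 20.2%). Mr1, which presents microbial metabolites, was at 3.12 ± 0.445, 1.77 ± 0.398 and 4.89 ± 1.29 CPM, with log2 fold changes of -0.81 with thrombin (adjusted p = 0.0098) and 1.46 for PD03 against thrombin (adjusted p = 9.0e-07). The class I gene RT1-S3 was called in the same comparisons (-0.58 and 0.90), and reads shared with other RT1 genes could not be told apart from this table. The lipid-presenting Cd1d1 (0.93) and the Fc receptor Fcgrt (0.82) were higher with PD03 against thrombin and had log2 fold changes of -0.50 and -0.33 with thrombin, under the fold threshold. Of 11 class II genes, 7 had a row and 1, RT1-DMa, was tested, with log2 fold changes of -0.40 with thrombin (adjusted p = 6.4e-04) and 0.70 for PD03 against thrombin (adjusted p = 7.7e-09).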

How the data were processed

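Messenger RNA from 9 libraries, 3 per group, was analysed from a table in which the authors deposited a raw count and an FPKM value per gene and library. According to the paper's methods the authors used fastp for trimming, HISAT2 for alignment to Rnor_6.0 and featureCounts for counting, while the submitters' processing notes name mRatBN7.2 and HTSeq 0.13.5. Strandedness and annotation release were not given in the sources used here. FPKM values as deposited are the counts divided by length and library total, and served for levels between genes and as an alternative.

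Counts were tested with edgeR 4.0.16 in R 4.3.3: filterByExpr (minimum count 10, 13256 genes kept), TMM scaling, 1 quasi-likelihood fit of all 9 libraries, and Benjamini-Hochberg adjustment over the 13256 genes. Calls needed p below 0.05 after adjustment and a log2 fold change beyond 0.58 in either direction. Standard errors were taken from the F statistic. The procedure was tested on simulated data. Replicates differed by more than counting noise, and the biological coefficient of variation was 4.28%.

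The members and lists were chosen with earlier results of these data known. All 42 members are named, those called in at least 1 comparison with every library's value. From each other list at most 4 called genes are named, those with the largest absolute log2 fold change and at least 1 CPM in the higher group, besides Psmb5, Psmb6, Psmb7 and Stat2 whatever their values. Any other gene was chosen after its values were seen. Alternatives covered DESeq2 1.42.0, limma 3.58.1 (voom, and FPKM with 1 or 0.1 added on the log2 scale), scaling, filters, fold thresholds, a block for the replicate number, and leaving out each library in turn. Promoter entries and gene order came from RefSeq (GRCr8), a build other than that of the counts. Figures were drawn with matplotlib 3.10.9.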

Additional observations from a re-analysis of the deposited data

How the results depend on the processing

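Among the tested members no log2 fold change that passed the test changed sign under any alternative. The count of members lower with thrombin, 9, was 22 with no fold threshold, 1 with an absolute log2 fold change above 1, 4 from FPKM plus 1, and 6 to 9 with a library left out. The 4 higher in PD03 against thrombin were 16 with no fold threshold, 0 with a log2 fold change above 1, 2 with library totals, 0 from FPKM plus 1, 2 from FPKM plus 0.1, and 2 to 5 with a library left out. By DESeq2, Oas1a lost its call with thrombin (adjusted p = 0.086). Parp9 lost its call in PD03 against thrombin by DESeq2 (log2 fold change 0.579). Without the filter on low counts both calls were lost too (adjusted p = 0.063 for Oas1a, log2 fold change 0.567 for Parp9). The 0 lower in PD03 against thrombin were 1 with no fold threshold and 1 from FPKM plus 0.1, Usp18. The 3 lower in PD03 against control were 14 with no fold threshold, 0 above 1 and 3 to 4 with a library left out, and the 0 higher were 1 with no fold threshold. The members' median of 0.22 in PD03 against thrombin was 0.12 with library totals, 0.11 from FPKM plus 1 and 0.12 from FPKM plus 0.1, and that of -0.18 in PD03 against control was -0.30 with library totals and -0.30 from FPKM plus 0.1. Same-numbered libraries did not deviate together (correlations -0.046 to 0.052 in 9 pairs, and -0.056 to 0.055 in 18 other pairs). Correlations of this kind cannot decide whether samples of the same number shared an animal or culture. With the replicate number as a block the counts stayed at 9, 4 and 3.

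For the other interferon-induced genes, the 13 lower with thrombin were 23 with no fold threshold, 7 above 1 and 7 from FPKM plus 1, and the 1 higher was 0 with a mean count of at least 50 and 3 with no fold threshold. In PD03 against thrombin the 5 lower were 3 with a mean count of at least 50 and 10 with no fold threshold, and the 11 higher were 7 with library totals, 18 with no fold threshold, 2 above 1, 2 from FPKM plus 1 and 6 from FPKM plus 0.1. In PD03 against control the 11 lower were 7 with a mean count of at least 50, 21 with no fold threshold, 6 above 1 and 7 from FPKM plus 1. The 1 higher there was 7 with no fold threshold, 0 with library totals, above 1, from FPKM plus 1 or from FPKM plus 0.1, and 0 to 1 with a library left out (0 without control library 2, PD03 library 2 or PD03 library 3). A fold threshold changes a count by its construction. So do a filter on the mean count, which removes genes, and a value added to FPKM, which makes fold changes of low genes smaller. Other causes were not tested. At 1 to 20 counts per library, a log2 fold change of -1.04 in Ifit3 did not pass the test.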

Other observations

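The promoter search was extended, after the data had been seen, to tested genes outside the 42 members. Of these, 294 held the response element core in their RefSeq entry and 9609 had an entry without it. With thrombin, 35 of the 294 (11.9%) were called lower and 4 (1.36%) higher, beside 4.83% and 2.46% of the 9609. In PD03 against thrombin 12.6% of the 294 were called higher and 8.5% lower, beside 9.1% and 6% of the 9609. In PD03 against control 6.46% were called lower and 5.1% higher, beside 3.69% and 4.79%. The medians of the log2 fold changes with thrombin were -0.043 with the core and -0.00039 without it. Among the tested members with an entry, the 17 with the core had a median log2 fold change of -0.39 with thrombin and the 14 without it -0.32, with 100% and 85.7% below 0 and 4 called lower in each set. In PD03 against thrombin these medians were 0.29 and 0.039, with 17.6% and 35.7% below 0, and in PD03 against control they were -0.20 and -0.13. These are counts and medians with no test, and the genes with the core include other interferon-induced genes described above.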
